A study of Mus musculus with 32 samples.

Results

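The cascade described here runs from cAMP through protein kinase A (PKA) to the striatal phosphatase inhibitor DARPP-32, and 10 genes represent it: *Ppp1r1b*, *Arpp19*, *Arpp21*, *Prkaca*, *Prkacb*, *Prkar1b*, *Prkar2b*, *Creb1*, *Crem* and *Ppp3ca*. They were taken by name from the 23420 genes of the count tables, and the rule uses no measured value. All 10 passed the filter on low counts and are among the 15589 genes tested. RNA was sequenced from the striatum of 8 naïve C57BL/6J (B6) mice and 8 naïve B6.D2 congenic littermates of Line 4a. The congenic mice carry a segment of chromosome 11 from the DBA/2J (D2) strain on 1 of their chromosomes, against a B6 background. The paper also reports a single D2-derived marker on another chromosome, found in both genotypes. The comparison asks which striatal transcripts differ in level with this segment, which was mapped for a weaker locomotor response to methamphetamine. The labels give an age of about 50 days for both genotypes. Bilateral punches of each mouse were pooled, so a library can hold tissue that borders the striatum, and neither sex nor home cage is given per mouse in the labels, while the methods state females and males in both genotypes. The congenic line is 1 recombinant line. *Ppp1r1b*, at chr11:98348406-98357796 (GRCm38), is the member of the set that shares a chromosome with the segment. The gene itself lies far outside the segment, in a part of that chromosome that is of B6 origin in both genotypes.

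In the medium spiny projection neurons that make up most of the striatum, dopamine acting on D1 receptors raises cAMP. Cyclic AMP binds the regulatory subunits of PKA and frees the catalytic subunits. PKA then phosphorylates DARPP-32, which in that state inhibits protein phosphatase 1, and phosphorylates the transcription factor CREB in the nucleus. Calcineurin, a calcium-dependent phosphatase, removes the PKA mark from DARPP-32, so that dopamine and glutamate signals meet on this protein. ARPP-19 and ARPP-21 are small phosphoproteins that were likewise found as PKA substrates in the striatum. The deposited values are read counts per gene, which measure transcript abundance and not kinase activity or phosphorylation.

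The libraries held between 19032826 and 33748353 reads on genes, and the rarest of the 10 genes, *Crem*, still had between 283 and 564 reads per mouse. Levels are given in CPM, a gene's counts-per-million of all gene reads in the library, after TMM scaling of the library sizes. Defining striatal markers were abundant in every mouse, with *Penk* between 997 and 1660 CPM and *Drd1a* between 208 and 308 CPM in the 16 mice. Markers of cortical glutamatergic neurons were also detected in every mouse, at a summed 914 to 1408 CPM in B6 mice and 693 to 1207 CPM in congenic mice, and all 17 that were tested had a lower mean in the congenic mice, 14 of them at an unadjusted p below 0.05 and none at an FDR of 20%. Of 17 markers of striatal projection neurons, 15 had a higher mean in the congenic mice, none at an unadjusted p below 0.05, and without the 2 mice that stood apart, described next, all 17 were higher, 4 of them at that threshold. The cortical list holds genes that the study picked from these libraries, so its direction is not independent evidence. Libraries of 2 mice stood apart. In B6.D2 congenic mouse 1, 27.3% of reads had more than 1 alignment, against 19.5% to 21.4% in the B6 mice, and its level was the highest or the lowest of the 16 mice for 59.0% of the genes tested. B6 mouse 8 had 68.3% of its reads on genes, the highest share of all mice, and was at an extreme for 29.0% of the genes, against 4.03% to 13.4% in the other 14 mice. Values without these 2 mice are therefore given beside the genotype differences.

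Per kilobase of annotated exon, the transcript of the phosphatase inhibitor DARPP-32 was the most abundant of the 10 genes and that of the transcription factor *Crem* the least. *Ppp1r1b* stood at 439 ± 75.8 CPM per kb in B6 mice and 479 ± 78.2 in congenic mice (SD, n = 8 each). The calcineurin catalytic subunit *Ppp3ca* followed at 231 ± 32.7 and 230 ± 13.4 CPM per kb. *Arpp19* (120 and 124 CPM per kb), *Prkar1b* (122 and 109), *Prkacb* (110 and 102), *Arpp21* (82.1 and 81.8) and *Prkaca* (74.3 and 74.5) formed a middle group in which the ranges of neighbours overlapped. Within this group the order also varied from mouse to mouse, since *Arpp19* exceeded *Prkar1b* in 10 of 16 mice and *Arpp21* exceeded *Prkaca* in 13 of 16. *Prkar2b* came next at 38.4 ± 4.55 and 37.5 ± 2.68 CPM per kb, with no overlap with its neighbours on either side. *Creb1* stood at 7.64 ± 0.493 and 7.25 ± 0.502 CPM per kb and *Crem* at 2.51 ± 0.281 and 2.32 ± 0.253. The beta catalytic transcript of PKA thus exceeded the alpha transcript, and the I-beta regulatory transcript exceeded the II-beta one, in the striatal punches of both genotypes. Exon lengths come from the GENCODE annotation of mm9, matched by symbol, and take in every annotated isoform, so a gene with long exons that the striatum does not use is placed too low.

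None of the 10 genes differed between the genotypes at a false discovery rate (FDR) of 5% over all genes tested (edgeR quasi-likelihood test), and the lowest adjusted p among them was 0.40. At that threshold 1 gene of 15589 was called, which is 0.00641% of the genes tested, and at an FDR of 20% 3 genes were called, or 0.0192%. At an unadjusted p below 0.05, *Prkar1b* and *Prkacb* were lower in the congenic mice and no member was higher, while 5.14% of all genes were lower and 4.86% higher at that threshold. Of the 10 genes, 7 had a lower and 3 a higher mean in congenic mice, with a median log2 fold change of -0.02 against 0.01 over all genes tested. Of all genes tested, 45.1% were lower in this fit. Without the 2 mice that stood apart, 6 of the 10 genes were lower, against 50.9% of all genes. The 95% intervals of the log2 fold changes reached no further than -0.28 on the low side and 0.35 on the high side.

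**Figure D1:**
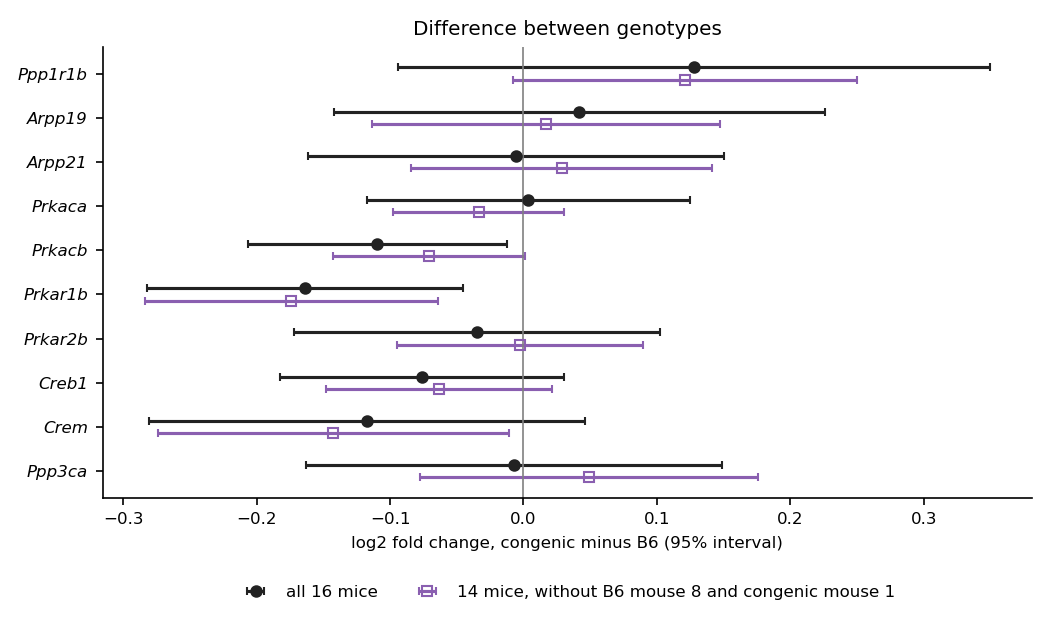
Log2 fold change (congenic minus B6) of the 10 genes with 95% intervals from the edgeR fit, for all 16 mice (filled circles) and for 14 mice without B6 mouse 8 and congenic mouse 1 (open squares). With 16 mice the intervals of *Prkacb* and *Prkar1b* lie below 0, and with 14 mice those of *Prkar1b* and *Crem* do.

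The regulatory subunit I-beta, encoded by *Prkar1b* and found mainly in neurons, had the largest difference relative to its error. *Prkar1b* ranged from 421 through a median of 463 to 507 CPM in the B6 mice and from 372 through 408 to 465 CPM in the congenic mice. The groups overlapped in part, with 5 of 8 congenic mice below every B6 mouse and 4 B6 mice above every congenic mouse. The log2 fold change of *Prkar1b* was -0.16 ± 0.06 (SE), or 0.893-fold, with an unadjusted p of 0.00938 and an FDR of 0.40 (edgeR), and the exact two-sided permutation test gave p = 0.0115. Without the 2 mice that stood apart it was -0.17 ± 0.05 (p = 0.00375, FDR 0.24, edgeR) and the exact permutation p was 0.0140. Mice of lanes 5 and 6 gave -0.17 and mice of lanes 7 and 8 gave -0.16. These lane pairs, with 4 mice per genotype in each, are the batch that the labels record. DESeq2, an alternative to edgeR, gave *Prkar1b* an adjusted p of 0.197, the lowest of any alternative for this gene. In the mm9 annotation 341 bp of its exons, or 8.95%, overlap a gene on the same strand, Gm15672, from which reads cannot be told apart.

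The other regulatory subunit in the set, II-beta (*Prkar2b*), is the abundant type II form in striatal neurons. *Prkar2b* ranged from 127 through 135 to 177 CPM in B6 mice and from 120 through 137 to 150 CPM in congenic mice, with 7 of 8 congenic mice inside the B6 range. Its log2 fold change was -0.03 ± 0.07 (FDR 0.87, edgeR; exact permutation p = 0.690) with a 95% interval from -0.17 to 0.10, and -0.003 ± 0.04 without the 2 mice. The highest *Prkar2b* value of all was that of B6 mouse 8.

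*Prkacb*, the beta catalytic subunit that phosphorylates the targets of the cascade, was lower in all 8 congenic mice than the B6 median. It ranged from 547 through 587 to 684 CPM in B6 mice and from 522 through 560 to 571 CPM in congenic mice. The B6 mice were spread more widely, and 6 of them lay above every congenic mouse. The log2 fold change was -0.11 ± 0.05, or 0.927-fold (unadjusted p = 0.0295, FDR 0.46, edgeR), with an exact permutation p of 0.00870. Each of the 2 mice that stood apart was an extreme of its genotype, and without them the difference was -0.07 ± 0.03 (p = 0.0538, FDR 0.40, edgeR; exact permutation p = 0.0326). The alpha catalytic subunit *Prkaca* ranged from 160 through 170 to 188 CPM in B6 mice and from 156 through 169 to 217 CPM in congenic mice. The upper end of the congenic range was mouse 1, and the other congenic mice lay at or below 172 CPM. Its log2 fold change was 0.00 ± 0.06 (FDR 0.99, edgeR; exact permutation p = 0.988), with an interval from -0.12 to 0.12, and -0.03 ± 0.03 without the 2 mice.

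DARPP-32 itself (*Ppp1r1b*) was the member with the largest positive value. It ranged from 1052 through 1227 to 1748 CPM in B6 mice and from 1155 through 1359 to 1934 CPM in congenic mice, and 7 of 8 congenic mice lay above the B6 median. Congenic mouse 1 lay above the B6 range and the other 7 inside it. The highest value in each genotype was that of the mouse that stood apart, and the next values were 1389 CPM in B6 and 1414 CPM in congenic mice. The log2 fold change was 0.13 ± 0.11 (FDR 0.69, edgeR; exact permutation p = 0.277), with a 95% interval from -0.09 to 0.35. Leaving out congenic mouse 1 alone gave 0.05, leaving out B6 mouse 8 alone gave 0.20 (p = 0.0431, edgeR), and leaving out both gave 0.12 ± 0.06 (p = 0.0638, FDR 0.42, edgeR; exact permutation p = 0.0886). The value was 0.32 among mice of lanes 5 and 6 and -0.07 among mice of lanes 7 and 8. That difference between the lane pairs, -0.38 ± 0.20, did not pass the test of the interaction (p = 0.0830, FDR 0.95, edgeR), and no gene of the 15589 passed it at 5%, with 293 at an unadjusted p below 0.05. In the mm9 annotation 15.7% of the exon bases of *Ppp1r1b* overlap the antisense gene 1700003D09Rik. The counting did not use the strand, so reads on exons of both genes were left uncounted as ambiguous. The antisense gene had 137 reads in congenic mouse 1 and 568 to 832 in the other 15 mice.

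The other phosphoproteins of the cascade differed by less than the spread between mice. *Arpp19*, whose phosphorylated product inhibits the phosphatase PP2A in dividing cells, ranged from 499 through 568 to 717 CPM in B6 mice and from 557 through 583 to 803 CPM in congenic mice. Its log2 fold change was 0.04 ± 0.09 (FDR 0.89, edgeR; exact permutation p = 0.650), and the highest value was that of congenic mouse 1. *Arpp21*, whose product regulates calmodulin signalling and binds RNA, ranged from 1174 through 1297 to 1730 CPM in B6 mice and from 1239 through 1337 to 1488 CPM in congenic mice, so that all 8 congenic mice lay inside the B6 range. The log2 fold change of *Arpp21* was -0.01 ± 0.07 (FDR 0.98, edgeR; exact permutation p = 0.974). Without the 2 mice the values were 0.02 ± 0.06 for *Arpp19* and 0.03 ± 0.05 for *Arpp21*.

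The *Arpp21* transcript unit (chr9:112065091-112236288, GRCm38, minus strand) also holds the gene of a microRNA, Mir128-2, at chr9:112118636-112118711 on the same strand. Its mature arm is shown because *Arpp21* is one of the 10 genes and the host of this microRNA, with the seed, bases 2 to 8, in capitals (RefSeq, GRCm38.p6). The arm is not specific to this host, since Mir128-1 on chromosome 1 encodes the same sequence. The row of Mir128-1 had between 1 and 6 reads per mouse.

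mmu-miR-128-3p: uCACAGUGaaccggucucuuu

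The row of Mir128-2 had 0 reads in all 16 mice, which allows up to 3 reads per mouse by counting error, and mRNA libraries such as these do not measure mature microRNAs.

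*Ppp3ca*, the A-alpha catalytic subunit of calcineurin, ranged from 1103 through 1190 to 1593 CPM in B6 mice and from 1131 through 1266 to 1386 CPM in congenic mice. All congenic mice lay inside the B6 range, and 7 of 8 lay above the B6 median. The log2 fold change of *Ppp3ca* was -0.01 ± 0.07 (FDR 0.98, edgeR; exact permutation p = 0.973), with an interval from -0.16 to 0.15, and 0.05 ± 0.06 without the 2 mice. Among the transcription factors, *Creb1* ranged from 61.1 through 63.3 to 71.8 CPM in B6 mice and from 53.0 through 62.2 to 67.4 CPM in congenic mice. Its log2 fold change was -0.08 ± 0.05 (FDR 0.61, edgeR; exact permutation p = 0.142), and the lowest value was that of congenic mouse 1. Without the 2 mice the difference of *Creb1* was -0.06 ± 0.04 (p = 0.131, edgeR). *Crem*, which encodes activators and the inducible repressor ICER, ranged from 12.6 through 14.6 to 17.0 CPM in B6 mice and from 12.4 through 13.2 to 17.1 CPM in congenic mice. Here 7 of 8 congenic mice lay below the B6 median, and mouse 1 was the exception and the highest of all. The log2 fold change of *Crem* was -0.12 ± 0.08 (FDR 0.61, edgeR; exact permutation p = 0.153). Without the 2 mice it was -0.14 ± 0.06 (unadjusted p = 0.0357, FDR 0.36, edgeR; exact permutation p = 0.0606), which gave 2 of the 10 genes lower at an unadjusted p below 0.05 against 7.32% of all genes and none higher against 5.44%.

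**Figure D2:**
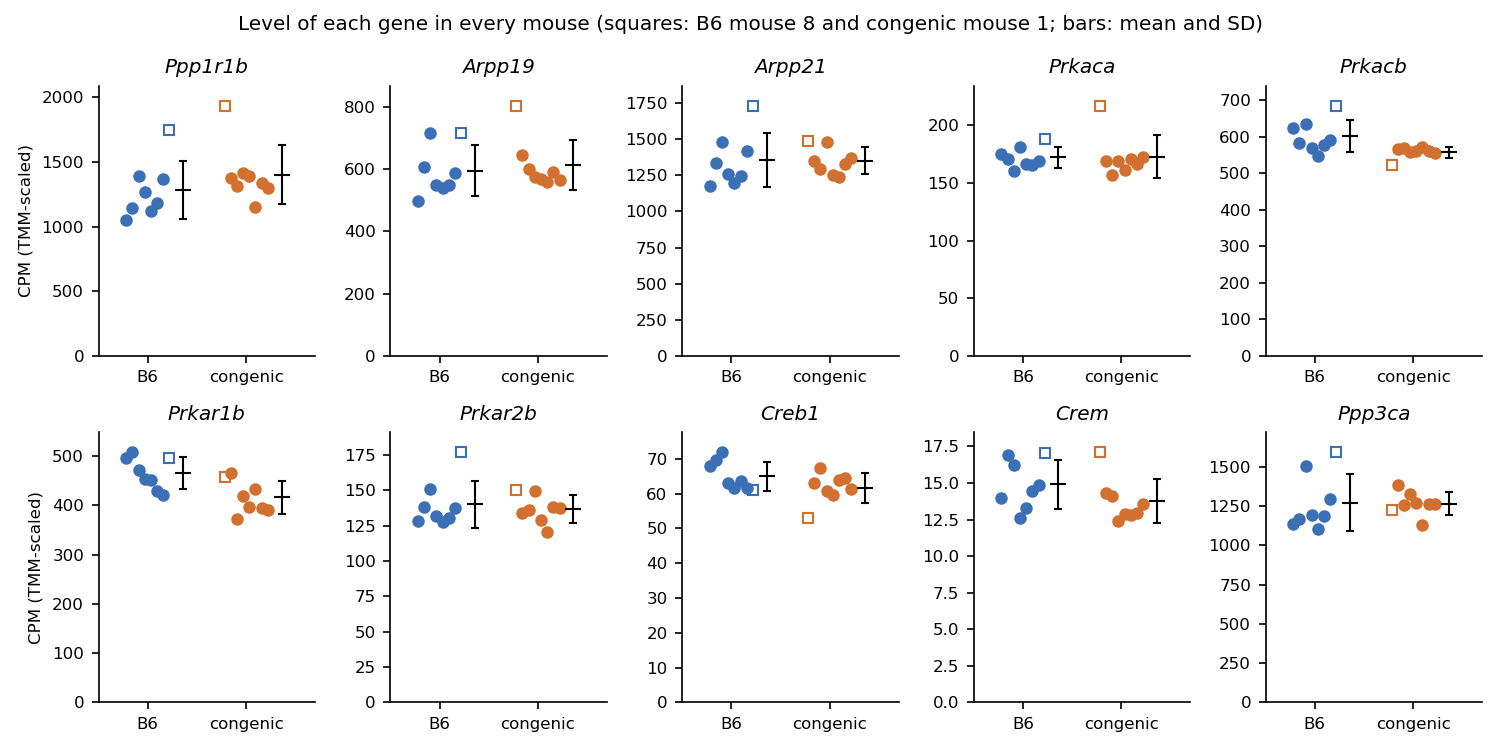
TMM-scaled CPM of each of the 10 genes in every mouse, in B6 mice (blue) and B6.D2 congenic mice (orange); circles are mice, open squares are B6 mouse 8 and congenic mouse 1, and the bars give the mean and SD of 8 mice. All congenic values of *Prkacb* lie below the B6 median of 587 CPM, and the open squares are the highest values of *Ppp1r1b* in both genotypes.

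The 2 genes that were lower at an unadjusted p below 0.05 were set against markers of cortical neurons, with no test of the difference between their correlations. A cortical score, the mean standardized log2 CPM of 11 cortical markers that the study's table of changed genes does not list, was 0.474 ± 0.604 in B6 mice and -0.474 ± 0.695 in congenic mice (SD, n = 8 each), and the exact permutation test of this difference gave p = 0.0134. These markers were listed with earlier results of these data known, so that p-value is a description and not independent evidence. Over the 16 mice, with each genotype centred on its mean, *Prkar1b* had r = 0.73 and rho = 0.76 with the cortical score (permutation p = 0.00226 and 0.00139, adjusted over 20 relations 0.0146 and 0.00927). The r was 0.59 without the 2 mice farthest from the median score, 0.80 without the 2 libraries that stood apart, and 0.66 and 0.68 within the pairs of lanes. *Prkacb* had r = 0.14 and rho = 0.22 with the same score (permutation p = 0.594 and 0.435, adjusted 0.816 and 0.725). With the score as a covariate, the log2 fold change was -0.05 for *Prkar1b* (p = 0.408, edgeR) and -0.09 for *Prkacb* (p = 0.139, edgeR), and the share of all genes at an unadjusted p below 0.05 was lower too, with 320 genes in place of 1559. In bulk tissue, fewer cells of a type and less RNA per cell cannot be told apart. The score itself differs between the genotypes, so this fit cannot tell cortical tissue and genotype apart in the difference of *Prkar1b*. The part of cortical tissue in that difference was not tested.

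A striatal score was built in the same way from 13 markers of projection neurons. It was -0.185 ± 1.10 in B6 mice and 0.185 ± 0.308 in congenic mice (exact permutation p = 0.378). *Ppp3ca* followed this score most closely, with r = 0.90 and rho = 0.91 (permutation p = 2e-05 and 7e-05, adjusted 0.000400 and 0.00140). *Ppp1r1b* had r = 0.72 and rho = 0.81 (permutation p = 0.000620 for each, adjusted 0.00620), *Arpp21* r = 0.78 and rho = 0.74 (permutation p = 0.00292 and 0.00468, adjusted 0.0146 and 0.0234), and *Prkar2b* r = 0.71 and rho = 0.60 (permutation p = 0.00425 and 0.0166, adjusted 0.0170 and 0.0554). Without the 2 mice farthest from the median score the r of these genes was 0.81, 0.55, 0.56 and 0.43, without the 2 libraries that stood apart it was 0.84, 0.90, 0.68 and 0.54, and within lanes 5 and 6 it was 0.89, 0.38, 0.51 and 0.46. *Prkaca* (r = 0.05), *Prkar1b* (r = -0.11) and *Creb1* (r = -0.15) had adjusted permutation p-values between 0.816 and 0.898 with the striatal score. With this score as a covariate the log2 fold change of *Ppp1r1b* was 0.07 (p = 0.404, edgeR) and that of *Prkacb* was -0.13 (p = 0.00586, edgeR). The share of all genes that reach such an r with the cortical or the striatal score is not given here. A high r with a score is therefore not shown to be particular to these members.

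**Figure D3:**
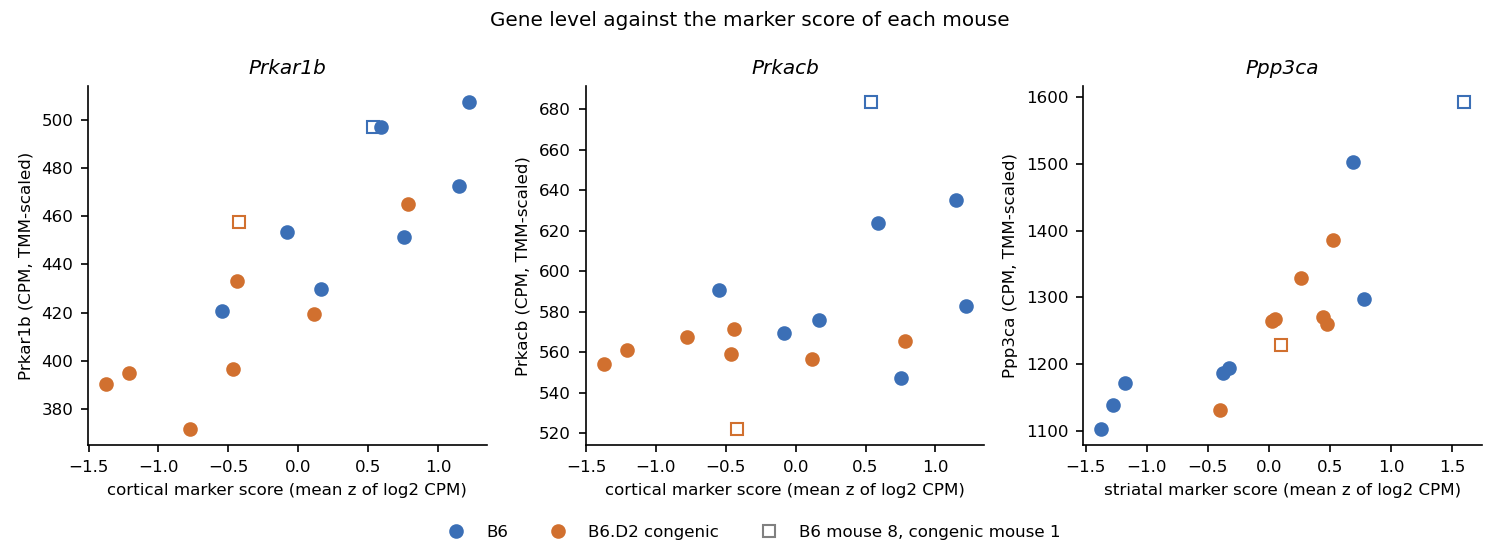
CPM of *Prkar1b* and *Prkacb* against the cortical marker score and of *Ppp3ca* against the striatal marker score, 1 point per mouse, B6 in blue and B6.D2 congenic in orange, with open squares for B6 mouse 8 and congenic mouse 1. *Prkar1b* rises along the cortical score in both genotypes (r = 0.73 with genotypes centred), and *Ppp3ca* rises along the striatal score (r = 0.90). The r of *Prkacb* with the cortical score, 0.14, had a permutation p of 0.594.

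The levels of the 10 genes were also compared with each other from mouse to mouse. Of the 45 pairs of genes, 16 had a correlation of log2 CPM, centred on genotype, with an adjusted permutation p below 0.05, and r was above 0 in 15 of them. In 12 pairs the adjusted p of rho was below 0.05 as well. Correlation of this size was common in these libraries: 23.1% of all pairs among 11827 genes reached the lowest size of r of these 16 pairs, 0.621 in either direction, beside 37.8% (17) of the 45 pairs. Without the 2 libraries that stood apart, 4.92% of all pairs and 24.4% (11) of the 45 reached the corresponding size, 0.656. The highest was between *Arpp21* and *Prkar2b*, with r = 0.96 and rho = 0.91 (permutation p = 1e-05 and 2e-05, the first of which is the smallest that 100000 resamples can give; adjusted 0.000450 and 0.000900). That r was 0.92 without the 2 mice farthest from the median of *Arpp21*, 0.90 without the 2 libraries that stood apart, and 0.97 and 0.96 within the pairs of lanes. *Arpp21* with *Ppp3ca* (r = 0.84, rho = 0.78), *Ppp1r1b* with *Arpp21* (r = 0.85, rho = 0.84) and *Ppp1r1b* with *Prkar2b* (r = 0.84, rho = 0.75) belonged to the same block of correlated genes, with adjusted permutation p-values between 0.000450 and 0.00810. Without the 2 libraries their r was 0.82, 0.77 and 0.71. *Ppp1r1b* with *Ppp3ca* had r = 0.67 and rho = 0.78 (permutation p = 0.00463 and 0.00135, adjusted 0.0208 and 0.00810), and r was 0.26 within lanes 5 and 6, 0.99 within lanes 7 and 8 and 0.86 without the 2 libraries.

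Of the pairs that join *Prkaca*, *Prkacb* or *Prkar1b* to 1 of these block genes, *Prkacb* with *Ppp3ca* had an adjusted permutation p of r below 0.05 (r = 0.71, adjusted p = 0.0398). Its rho was 0.44 (adjusted permutation p = 0.30), and its r was 0.38 without the 2 mice farthest from the median of *Prkacb*. *Prkaca* and *Prkacb* had r = -0.11 and rho = -0.16 with each other (permutation p = 0.582 and 0.572, adjusted 0.648 and 0.830), and r was -0.74 within lanes 5 and 6 and 0.86 within lanes 7 and 8. *Prkaca* with *Ppp1r1b* had r = 0.64 and rho = 0.10 (permutation p = 0.0248 and 0.711, adjusted 0.0656 and 0.889), and r was 0.67 within each pair of lanes but -0.28 without the 2 mice farthest from the median of *Ppp1r1b*, so that the relation rests on those mice, which are B6 mouse 8 and congenic mouse 1. The negative r of *Prkaca* with *Creb1*, -0.71 (adjusted permutation p = 0.0356), was -0.32 without the same mice, and its rho was -0.45 (adjusted p = 0.260). *Arpp19* with *Crem* had r = 0.86 and rho = 0.86 (adjusted permutation p = 0.00225 and 0.00270), and 0.71 without the 2 libraries. Counting all pairs without the 2 libraries, 9 had an adjusted p below 0.05, all of them positive; within lanes 7 and 8 there were 10, and within lanes 5 and 6, none. At 4 mice per genotype these within-lane values have little precision.

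**Figure D4:**
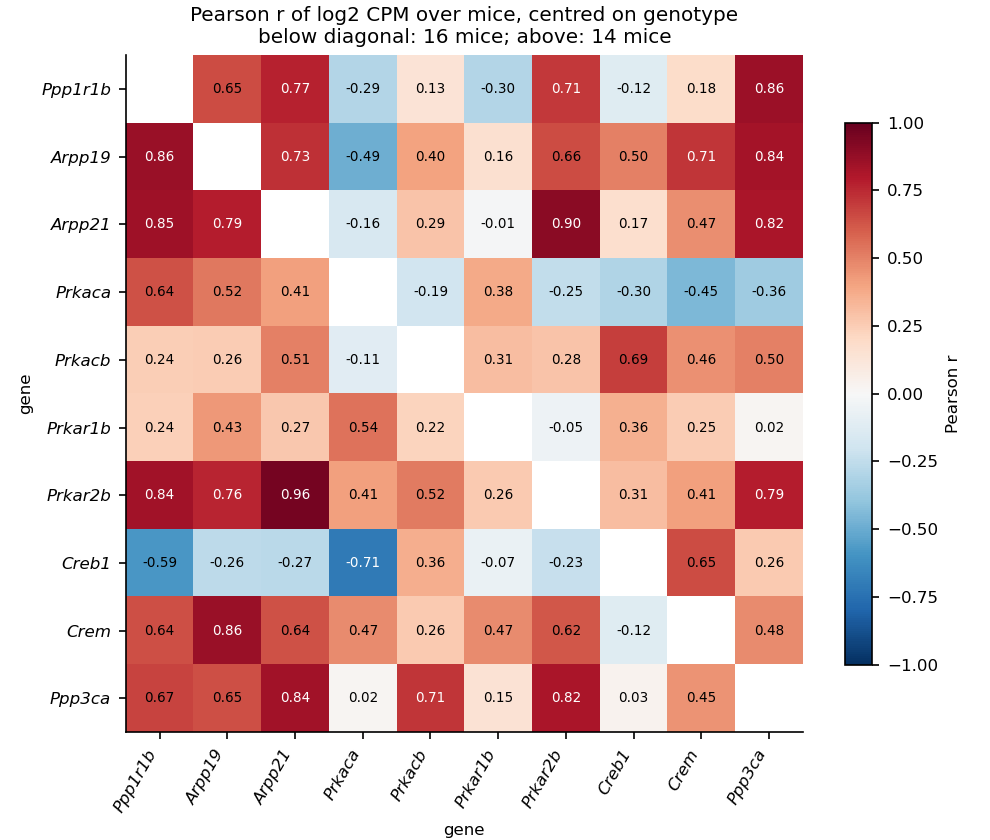
Pearson r of log2 CPM, centred on genotype, for each pair of the 10 genes, on a colour scale from -1 (blue) to 1 (red), over 16 mice below the diagonal and over 14 mice, without B6 mouse 8 and congenic mouse 1, above it. *Ppp1r1b*, *Arpp19*, *Arpp21*, *Prkar2b* and *Ppp3ca* form a block of positive values on both sides of the diagonal, and *Ppp1r1b* with *Prkaca* goes from 0.64 to -0.29.

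The genes whose level followed each member most closely, among 11827 genes with a mean of at least 5 CPM, are given as a description, with r over the 16 mice after centring on genotype. For *Ppp1r1b* they were *Penk* (r = 0.97), *Necab2* (0.96) and *Ppp1ca* (0.96), and for *Arpp19* they were *Sub1* (0.97), *Fam49b* (0.96) and *Calm2* (0.96). *Arpp21* was followed by E130309F12Rik (0.96), *Prkar2b* (0.96) and *Nsg2* (0.94), and *Prkar2b* by the same gene E130309F12Rik (0.96), *Arpp21* (0.96) and *Nsg2* (0.94). For *Ppp3ca* they were *Gucy1b3* (0.96), *Drd1a* (0.94) and *St8sia3* (0.94). *Prkaca* was followed by *Prnp* (0.98) and *Maea* (0.96), *Prkacb* by *Gabbr1* (0.91), *Scn2b* (0.88) and *Pcyox1* (0.88), and *Prkar1b* by *Ralyl* (0.89), *Minpp1* (0.88) and *Acsl5* (0.87). *Creb1* was followed by *Gcc2* (0.88), *Top2b* (0.88) and *Trps1* (0.88), and *Crem* by *Phax* (0.95), *Rwdd1* (0.94) and *Wasl* (0.94). Without the 2 libraries these values lay between 0.69 for *Prkacb* with *Pcyox1* and 0.95 for *Arpp19* with *Fam49b*, and 4 of the 30 such genes were still among the 3 closest to their member. The genes given for *Prkacb* then ranked 23, 40 and 100, and those for *Creb1* 88, 69 and 24.

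RefSeq gives start site windows for 7 of the 10 genes, from 250 bases before to 50 bases after the start (GRCm38.p6). Those printed belong to the pair with the highest r, *Arpp21* and *Prkar2b*, and to the pair that was lower at an unadjusted p below 0.05, *Prkacb* and *Prkar1b*. For each gene the outermost of its listed starts was taken. The windows were searched on both strands for the cAMP response element to which CREB and CREM bind, TGACGTCA, and for its shorter form TGACG, which lies inside the full element, and matches are in capitals. The windows are chr9:112233673-112233972 for *Arpp21*, chr12:32061228-32061527 for *Prkar2b*, chr3:146812897-146813196 for *Prkacb* and chr5:139150654-139150953 for *Prkar1b*, all on the minus strand.

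Arpp21: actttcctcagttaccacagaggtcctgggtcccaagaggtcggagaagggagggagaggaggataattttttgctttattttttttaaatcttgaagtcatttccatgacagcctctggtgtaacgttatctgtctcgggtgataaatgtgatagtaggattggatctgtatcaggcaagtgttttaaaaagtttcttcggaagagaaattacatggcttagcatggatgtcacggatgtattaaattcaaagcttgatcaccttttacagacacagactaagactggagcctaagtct

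Prkar2b: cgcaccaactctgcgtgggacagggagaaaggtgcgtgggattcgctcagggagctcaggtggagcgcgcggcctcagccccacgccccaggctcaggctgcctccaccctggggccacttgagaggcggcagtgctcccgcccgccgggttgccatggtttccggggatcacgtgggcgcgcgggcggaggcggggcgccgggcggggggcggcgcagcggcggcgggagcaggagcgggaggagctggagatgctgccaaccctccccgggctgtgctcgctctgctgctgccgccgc

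Prkacb: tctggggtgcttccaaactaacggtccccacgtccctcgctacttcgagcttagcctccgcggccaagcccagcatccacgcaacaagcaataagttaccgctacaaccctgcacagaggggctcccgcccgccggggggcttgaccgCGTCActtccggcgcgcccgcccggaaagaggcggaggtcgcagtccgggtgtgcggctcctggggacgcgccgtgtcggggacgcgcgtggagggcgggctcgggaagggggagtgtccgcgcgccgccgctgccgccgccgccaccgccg

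Prkar1b: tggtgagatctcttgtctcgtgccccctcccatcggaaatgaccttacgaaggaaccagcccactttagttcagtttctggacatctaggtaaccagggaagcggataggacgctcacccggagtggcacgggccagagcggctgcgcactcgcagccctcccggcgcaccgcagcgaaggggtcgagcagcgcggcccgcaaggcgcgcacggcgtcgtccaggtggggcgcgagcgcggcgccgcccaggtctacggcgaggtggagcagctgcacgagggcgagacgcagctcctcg

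The window of *Prkacb* holds 1 match to the short form, on the reverse strand, 102 bases before the start. Over all listed starts of the 7 genes, the full element had no match in these letters and the short form matched in windows of 4 genes, *Prkaca*, *Prkacb*, *Prkar1b* and *Arpp21*. Per window, the short form was in 6 of the 24 listed (25%), against 20.8% of the 32851 windows of all genes, and per gene 23.0% of all genes have it in at least 1 window. Genes with many listed starts, such as *Arpp21*, have more chances of a match. Overlapping windows of *Arpp21* hold the same match, which was counted in each of them. The full element is found in 1.79% of all windows.

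Ratios within each library, which do not depend on its size, showed no difference between genotypes that passed adjustment over the 4 ratios tested. The log2 ratio of *Prkar1b* to *Prkar2b* reads was 1.74 ± 0.15 in B6 mice and 1.60 ± 0.15 in congenic mice (SD, n = 8 each), a difference of -0.13 ± 0.07 (SE; exact permutation p = 0.0917, adjusted 0.195). Of the congenic mice, 6 of 8 lay below the B6 median. Without the 2 libraries the difference was -0.17, with an exact permutation p of 0.0460 and an adjusted p of 0.148. The log2 ratio of *Prkaca* to *Prkacb* was -1.80 ± 0.10 in B6 and -1.70 ± 0.18 in congenic mice (exact permutation p = 0.163, adjusted 0.218), and 7 of 8 congenic mice lay above the B6 median. That difference of 0.11 was 0.04 without congenic mouse 1 alone and 0.04 without both libraries (exact permutation p = 0.463). That of *Creb1* to *Crem* was 2.13 ± 0.15 and 2.17 ± 0.23 (exact permutation p = 0.686, adjusted 0.686), and the difference of 0.04 was 0.08 without both libraries (exact permutation p = 0.142). The log2 ratio of *Ppp1r1b* to *Ppp3ca*, the substrate and its phosphatase, was 0.01 ± 0.09 in B6 mice and 0.13 ± 0.21 in congenic mice (exact permutation p = 0.0976, adjusted 0.195). Congenic mouse 1 had 0.65 on that scale, and without the 2 libraries the congenic mean was 0.06 ± 0.05 against -0.01 ± 0.08 in B6 (exact permutation p = 0.0740, adjusted 0.148).

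**Figure D5:**
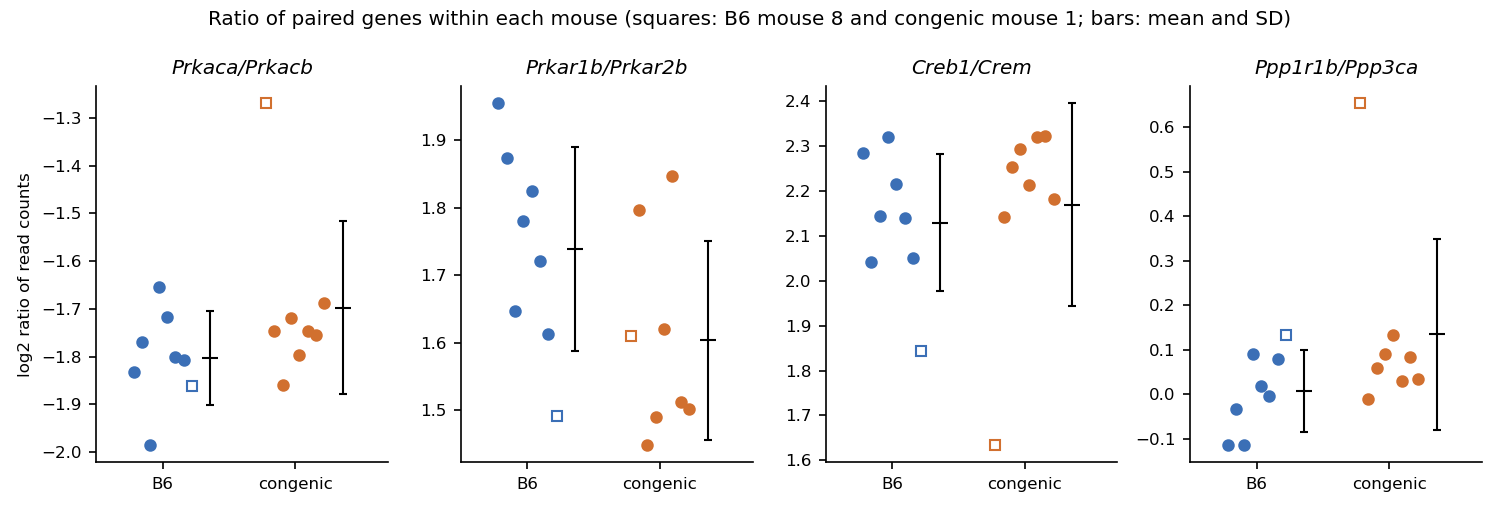
Log2 ratio of read counts of 4 pairs of genes in every mouse, B6 in blue and B6.D2 congenic in orange, with open squares for B6 mouse 8 and congenic mouse 1 and bars for the mean and SD of 8 mice. Congenic mouse 1 lies away from the other congenic mice in 3 of the ratios, all but *Prkar1b* to *Prkar2b*.

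Around the 10 genes, 51 other genes of the cascade were tested in 8 lists, and none passed an FDR of 20%. At an unadjusted p below 0.05 there were 2 lower and 2 higher in the congenic mice, beside 5.14% and 4.86% of all genes, and the median log2 fold change of the 51 was -0.03 against 0.01 over all genes. *Akap6* and *Akap11*, which encode scaffolds that tether PKA at intracellular sites, were the lower ones. *Akap11* ranged from 329 through 366 to 455 CPM in B6 mice and from 251 through 338 to 366 CPM in congenic mice, and its 8 congenic values were all below the B6 median, with a log2 fold change of -0.17 ± 0.08 (p = 0.0384, FDR 0.48, edgeR). *Akap6* had -0.19 ± 0.08 (p = 0.0389, FDR 0.48, edgeR), again with all 8 congenic mice below the B6 median. The values without the 2 libraries were -0.08 ± 0.05 for *Akap11* (p = 0.107, edgeR) and -0.09 ± 0.04 for *Akap6* (p = 0.0605, edgeR). The list of 10 A-kinase anchoring proteins had 6 lower and 4 higher. When the 2 libraries were left out, no gene of this list was lower at an unadjusted p below 0.05 and 2 were higher, named here after their values were seen. *Akap8* had 0.11 ± 0.03 (p = 0.00488, FDR 0.26, edgeR), against 0.18 ± 0.09 with all mice (p = 0.0655), and *Akap1* had 0.11 ± 0.04 (p = 0.00856, FDR 0.29, edgeR), against 0.08 ± 0.05 (p = 0.107).

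The higher ones were partners of CREB. *Crtc2*, a coactivator that enters the nucleus when cAMP and calcium rise, ranged from 23.8 through 31.5 to 35.7 CPM in B6 mice and from 32.7 through 34.1 to 36.5 CPM in congenic mice, so that each congenic mouse exceeded the median of B6. The difference of *Crtc2* on the log2 scale was 0.18 ± 0.07 (p = 0.0159, FDR 0.42, edgeR), and 0.13 ± 0.05 without the 2 libraries (p = 0.0281, FDR 0.34, edgeR). *Atf1*, a relative of CREB that pairs with it, had 0.14 ± 0.06 (p = 0.0299, FDR 0.46, edgeR), with all 8 congenic mice above the B6 median, and 0.09 ± 0.04 without the 2 libraries (p = 0.0440, edgeR). Over the 6 CREB partners and coactivators, 4 were higher and 2 lower with 16 mice, and all 6 were higher with 14 mice at a median log2 fold change of 0.08, against -0.002 over all genes. In the same fit of 14 mice the 17 striatal projection neuron markers were all higher too, at a median of 0.10, and their part in this was not tested. When the cortical score was added to the fit of all 16 mice, 4 of the 6 partners were lower, at a median of -0.05. *Crtc1*, the most abundant of them, had -0.01 ± 0.07 with 16 mice and 0.07 ± 0.03 with 14 mice, both without that score.

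In the other lists no gene reached an unadjusted p of 0.05 with all 16 mice. The most abundant other PKA subunit, *Prkar1a*, had 697 ± 40.4 CPM in B6 mice and 667 ± 29.0 in congenic mice (log2 fold change -0.06 ± 0.04), and all 3 subunits of this list had lower means. Of the 3 PKA inhibitor peptides, *Pkia* was the most abundant, at 223 ± 24.2 and 210.5 ± 7.09 CPM. Protein phosphatase 1 and its inhibitors, the machinery on which DARPP-32 acts, had 3 lower and 4 higher members, and its most abundant gene, the spinophilin gene *Ppp1r9b*, had 1320 ± 144 and 1267 ± 95.5 CPM. For the other kinases of DARPP-32 the most abundant was *Cdk5r1*, the p35 activator of CDK5, at 319 ± 29.2 and 302 ± 18.9 CPM, with 5 of 8 genes lower. The list of PP2A and the ARPP-19 switch had 4 of 7 lower, with its scaffold subunit *Ppp2r1a* at 459 ± 23.5 and 465 ± 45.2 CPM. *Ppp2r5d* of this list, a gene that the study lists as changed, had a log2 fold change of 0.04 ± 0.05 here (FDR 0.77, edgeR). Without the 2 libraries that of *Ppp2r5d* was 0.09 ± 0.04 (unadjusted p = 0.0205, FDR 0.32, edgeR). The study's model included home cage, which the labels do not give, so its result and these values come from unlike fits. Other calcineurin genes had 4 of 7 lower, with the regulatory subunit *Ppp3r1* at 983 ± 155 and 929 ± 88.5 CPM. In the fit of 14 mice, 2 of the 3 PKA subunits, all 3 inhibitor peptides, 7 of 8 of the other kinases and 5 of the 7 PP2A genes were lower, and the counts of the phosphatase 1 and calcineurin lists stayed at 3 and 4 of 7 lower. In that fit 9 of the 51 genes were at an unadjusted p below 0.05, 3 lower and 6 higher, beside 7.32% and 5.44% of all genes. Whatever their p-value, 45.1% of all genes tested were lower with 16 mice and 50.9% with 14 mice. *Hnrnph1*, which lies in the D2 segment, had a median of 248 CPM in B6 and 263 CPM in congenic mice.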

How the data were processed

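Single-end mRNA reads of striatal punches from 8 B6 and 8 B6.D2 congenic mice were deposited by the authors as raw counts, 1 file per mouse and lane. Per the methods and scripts, alignment to mm10 used TopHat with bowtie2 2.2.2, and htseq-count 0.6.1p1 (union, unstranded) assigned reads to genes; reads with several alignments or on exons of several genes stayed uncounted. The authors' own tables of fold changes and p-values were not used. Paper and labels differ in punch diameter, age and RNA kit.

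Counts of 31 lane files were added up within each mouse. The lane files of 15 mice differed by little more than sampling noise (chi-square per degree of freedom 0.997 to 1.05), and B6 mouse 7 is represented by 1 file. Rows that name no gene were dropped: 10.2% to 15.9% of reads lay outside genes, 0.824% to 1.07% were ambiguous and 19.5% to 27.3% had several alignments. After filterByExpr and TMM scaling, edgeR 4.0.16 (R 4.3.3) gave quasi-likelihood p-values, adjusted across every gene in the fit by Benjamini-Hochberg; the SE is the log2 fold change over the square root of F, and the fit was checked on simulated counts. The prior count for log2 CPM was 0.5. Exact two-sided permutation over mice served for single genes and ratios, and 100000 permutations within genotype for correlations (scipy 1.17.1).

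Besides the 10 members, genes are named if they belong to the cascade lists and had an unadjusted p below 0.05 or the highest level of their list, or were among the 3 nearest to a member by r. Some genes that this rule names are not reported here. Members and lists were chosen with earlier results of these data known; the marker score relations, and the values without 2 mice, were added after the values were seen. Alternatives were RLE and upper-quartile scaling, other filters, DESeq2 1.42.0, the likelihood ratio test, covariates (lane pair, replicate number, marker scores), each lane pair, the second lane file, and each mouse left out.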

Additional observations from a re-analysis of the deposited data

Results flagged for a closer look

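All 8 values that stood far from the rest of their group came from B6.D2 congenic mouse 1, the library with 27.3% of its reads at more than 1 alignment. They were found among 28 groups of 8 values searched, in which chance flags about 1 in 20. *Ppp1r1b* was 1934 CPM in this mouse, and the next congenic value was 1414 CPM. *Arpp19* was 803 CPM, next to 645 CPM, *Prkaca* was 217 CPM, next to 172 CPM, and *Crem* was 17.1 CPM, next to 14.3 CPM. *Prkacb* was lower in it than in the other congenic mice, at 522 CPM, next to 554 CPM. The log2 ratio of *Prkaca* to *Prkacb* was -1.27, next to -1.69, that of *Creb1* to *Crem* was 1.63, next to 2.14, and that of *Ppp1r1b* to *Ppp3ca* was 0.65, next to 0.13. Astrocyte markers summed to 5401 CPM in this mouse, the lowest of the 16, and microglial markers to 578 CPM, the highest. Their part in these values was not tested.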

How the results depend on the processing

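No member passed an FDR of 5% in any of 30 alternatives, and *Prkacb*, *Prkar1b* and *Crem* were lower in congenic mice in all of them. Their log2 fold changes ranged from -0.13 to -0.07, from -0.19 to -0.05 and from -0.20 to -0.04, and each of the other 7 members changed direction in at least 1 alternative. *Ppp1r1b* and *Creb1* did so in 1, within lanes 7 and 8.

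In lanes 7 and 8 alone the log2 fold change was -0.067 for *Ppp1r1b*, -0.074 for *Arpp19*, -0.046 for *Prkaca* and 0.0055 for *Creb1*. In lanes 5 and 6 alone it was 0.10 for *Arpp21*, 0.054 for *Prkar2b* and 0.057 for *Ppp3ca*, and the genotype difference of the log2 ratio of *Creb1* to *Crem* was -0.12. With the cortical score as a covariate *Arpp21* had 0.019, *Prkaca* -0.00067 and *Ppp3ca* 0.039, with upper-quartile scaling *Arpp21* had 0.0076 and *Ppp3ca* 0.0055, and from the second lane file alone *Prkaca* had -0.0031. Without the 2 libraries that stood apart *Arpp21* had 0.029, *Prkaca* -0.034 and *Ppp3ca* 0.049. No value of opposite sign had an unadjusted p below 0.05, and the cause of the changes of sign was not tested.

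Leaving out 1 mouse at a time gave -0.024 to 0.085 for *Arpp19*, -0.030 to 0.050 for *Arpp21*, -0.052 to 0.023 for *Prkaca*, -0.056 to 0.017 for *Prkar2b*, -0.034 to 0.043 for *Ppp3ca* and -0.00083 to 0.12 for the ratio of *Creb1* to *Crem*, and the ratio of *Prkaca* to *Prkacb* differed by 0.044 without congenic mouse 1 in place of 0.11. The number of members lower at an unadjusted p below 0.05 ranged from 1 (without B6 mouse 1 or 3) to 3 (without congenic mouse 1), and that of members higher from 0 to 1, which was *Ppp1r1b* without B6 mouse 8. Other cascade genes at that threshold ranged from 2 (without B6 mouse 2 or 3 or congenic mouse 8) to 11 (without congenic mouse 1), and all genes at an FDR of 5% from 1 to 4 (without congenic mouse 1; 3 without congenic mouse 6). The share of all genes at an unadjusted p below 0.05 is not given for these fits, so the ranges at that threshold cannot be set against it.

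At an unadjusted p below 0.05, no member was lower with the cortical score (0) or within lanes 5 and 6 (0). Other cascade genes at that threshold numbered 0 with the cortical score, 0 within lanes 5 and 6, 11 with the striatal score and 9 without the 2 libraries. The count over all genes moved as well, from 1559 of 15589 in the main fit to 320 with the cortical score and 2100 with the striatal score. Without the 2 libraries it was 1990 of 15601, and the count within lanes 5 and 6 is not given here. All genes at an FDR of 5% numbered 25 with DESeq2, 20 with the likelihood ratio test, 2 with lane pair as a covariate, 0 with the cortical score, 0 within lanes 5 and 6, 0 within lanes 7 and 8, and 7 without the 2 libraries. Member pairs with an adjusted p below 0.05 numbered 16 with all mice, 9 without the 2 libraries, 8 without the 2 mice farthest from the median, 0 within lanes 5 and 6 and 10 within lanes 7 and 8.

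Mouse numbers in the labels do not pair the genotypes: same-numbered mice correlated between -0.12 and 0.36 in their deviations, and 2 of 8 B6 mice were closest to the congenic mouse of their own number. With the replicate number as a block, *Arpp21* had 0.0026, *Prkaca* -0.0011 and *Ppp3ca* 0.0028, 1 member was lower at an unadjusted p below 0.05 and 0 genes passed an FDR of 5%. The 10 genes had at least 283 reads in every mouse.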
